A study of Homo sapiens with 12 samples.

Results

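The S100 proteins are small proteins with a pair of EF-hand motifs, most of which bind calcium, and 8 of their genes were followed here in HL60 cells: S100A8, S100A9, S100A12, S100A4, S100A6, S100A10, S100A11 and S100P. They were chosen by name from the 59251 genes of the count table. All 8 were in the table and among the 13318 genes tested. HL60 is a human acute myeloid leukemia line that lacks the PML-RARA fusion. For 48 h the cells received 1 µM all-trans retinoic acid (ATRA), 1 µM palbociclib, an inhibitor of CDK4 and CDK6 (CDK4/6i), or both drugs (CDK4/6i+ATRA), and controls were left non-treated. Each of the 4 groups had 3 RNA-Seq libraries, named biological replicates in the labels, so 12 libraries of the same line are compared in all. No animal, donor or second cell line entered these groups.

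In the cell, most S100 dimers take up calcium, expose a hydrophobic surface and bind target proteins such as annexins, myosin and cytoskeletal linkers. S100A10 is an exception that binds annexin A2 without calcium. S100A8 and S100A9 pair as calprotectin, an abundant cytosolic protein of neutrophils and monocytes that binds zinc and manganese and, once released, acts on TLR4 and on the receptor AGER (RAGE). S100A12 is a further phagocyte member and an AGER ligand. In the myeloid lineage these 3 genes are known to be switched on as promyelocytes mature, whereas S100A4, S100A6, S100A10 and S100A11 are expressed in many cell types.

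Total counts were between 12230923 and 18679544 per library, and 3 counts, taken as the floor, corresponded to 0.156 to 0.275 CPM, read counts scaled to the library size after TMM normalization. The TMM factors were 0.840 to 0.893 in the CDK4/6i+ATRA libraries and 1.03 to 1.07 in the others. With library size alone, the median log2 difference of all tested genes between CDK4/6i+ATRA-treated and non-treated cells moved from 0.02 to -0.25, with 4376 genes higher and 6431 lower in place of 5461 and 5424. The promyelocyte markers fixed for the check of identity (MPO, CTSG, CD33, KIT, MYB, ELANE, PRTN3 and AZU1) summed to 6785 to 7116 CPM in non-treated cells, 426 to 482 with ATRA, 3910 to 4036 with CDK4/6i and 131 to 152 with both drugs, with ELANE, PRTN3 and AZU1 listed at 0 in every library. The table places the exons of these 3 genes on an alternate contig as well as on their chromosome, so their 0 is not read as absence of expression, and the sum covers the other markers. The 7 neutrophil markers (CSF3R, CXCR2, FCGR3B, MMP8, LTF, LCN2 and CEACAM8) summed to 81.8 to 88.9, 169.0 to 175.7, 130.9 to 140.6 and 160.1 to 189.6 CPM in the same order, and LTF and LCN2 were at 0 in every group but ATRA, where they were at or below the floor. The 6 monocyte markers summed to 6.84 to 8.45, 10.4 to 12.4, 9.28 to 10.5 and 14.96 to 17.6 CPM, and the 5 megakaryocyte markers to 1.68 to 3.04, 3.37 to 3.73, 7.26 to 9.23 and 8.65 to 10.7 CPM, with PF4 at 0 in every library. HBB, EPCAM and COL1A2 had no count in any library. Of the 6 erythroid markers KLF1 alone exceeded the floor, in every group but CDK4/6i+ATRA, and their sum was at most 1.32 CPM. The 6 epithelial markers summed to at most 0.825 CPM, with KRT8 above the floor with both drugs. The 6 fibroblast markers summed to at most 0.466 CPM, with COL1A1 above the floor with ATRA, and PDGFRB with ATRA and with CDK4/6i. The 5 B cell markers summed to 14.8 to 18.5 CPM in non-treated cells, 22.8 to 25.3 with ATRA, 22.7 to 24.2 with CDK4/6i and 13.1 to 18.2 with both drugs. The 6 T cell markers summed to 2.53 to 2.58, 2.38 to 2.86, 3.32 to 3.61 and 0.825 to 1.16 CPM in that order, and the 5 NK cell markers to at most 1.65 CPM. These marker levels moved with the treatments, and their part in the S100 results was not tested.

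S100A8, S100A9 and S100A12 had the largest fold changes of the 8 members with ATRA and with both drugs, and each was highest with both. For S100A8 the non-treated libraries had 115, 108 and 128 counts (6.91, 6.77 and 7.21 CPM). The ATRA libraries had 502.7, 463.4 and 472.3 CPM, the CDK4/6i libraries 46.8, 49.9 and 48.3 CPM, and the CDK4/6i+ATRA libraries 1762, 1856 and 1918 CPM. No library of any group overlapped another group, and the order was CDK4/6i+ATRA, ATRA, CDK4/6i and non-treated. Non-treated cells had a mean of 6.96 ± 0.223 CPM (SD, n = 3). Relative to them, expression was 68.8 times as high with ATRA, 6.94 times with CDK4/6i and 265.0 times with both. The log2 fold changes against non-treated cells were 6.10 (SE 0.064, adjusted p = 2.83e-52), 2.79 (SE 0.077, adjusted p = 6.31e-34) and 8.05 (SE 0.063, adjusted p = 1.91e-57). In bulk RNA, more cells that express a gene and more RNA per cell cannot be told apart.

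S100A9, the partner of S100A8, had 45.3, 36.6 and 36.2 CPM in non-treated cells. It reached 1754, 1784 and 1642 CPM with ATRA, 122.1, 134.1 and 125.7 CPM with CDK4/6i and 4892, 5053 and 5265 CPM with both drugs. The 4 groups were again fully separated in the same order. The log2 fold changes against non-treated cells were 5.46 (SE 0.063, adjusted p = 2.13e-50), 1.69 (SE 0.062, adjusted p = 1.30e-28) and 7.01 (SE 0.066, adjusted p = 1.72e-54). On the TPM scale, which corrects counts for gene length and library size, S100A9 ranked 759 to 962 among all genes in non-treated cells, 220 to 244 with CDK4/6i, 9 to 10 with ATRA and 2 to 5 with both drugs. The corresponding ranks of S100A8 were 4479 to 4639, 811 to 893, 86 to 89 and 35 to 40.

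S100A12 was near the floor without ATRA. Its counts were 1, 2 and 0 in non-treated cells and 4, 7 and 0 with CDK4/6i. They were 29, 25 and 21 with ATRA and 408, 465 and 458 with both drugs, which is 1.47 ± 0.314 and 38.9 ± 2.22 CPM (SD, n = 3). The CDK4/6i+ATRA libraries stood above all others, and the non-treated and CDK4/6i libraries overlapped. The pooled ratio to non-treated cells was 653 with both drugs (exact 95% interval 223 to 3168), 24.4 with ATRA (8.05 to 121.2) and 3.50 with CDK4/6i (0.925 to 19.5). Without non-treated replicate 2 or 3, the fitted log2 rise of 9.17 with both drugs was 10.03 or 8.59, and that of 4.44 with ATRA was 5.30 or 3.87. These intervals cover counting error only, since no molecular identifiers were used. In the edgeR test the ATRA and CDK4/6i+ATRA rises were called (adjusted p = 1.14e-09 and 2.13e-33), and the CDK4/6i difference was not (log2 1.68, SE 0.89, adjusted p = 0.102). Without CDK4/6i replicate 3, whose count was 0, that difference was 2.23 and called (adjusted p = 0.0191). It was 0.80 without CDK4/6i replicate 2 (adjusted p = 0.560) and 2.55 without non-treated replicate 2 (adjusted p = 0.0587), neither called. CDK4/6i+ATRA exceeded ATRA alone by a ratio of 26.7 (21.1 to 34.1, adjusted p = 3.09e-30), against a fitted fold of 3.85 for S100A8 and 2.94 for S100A9.

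**Figure D1:**
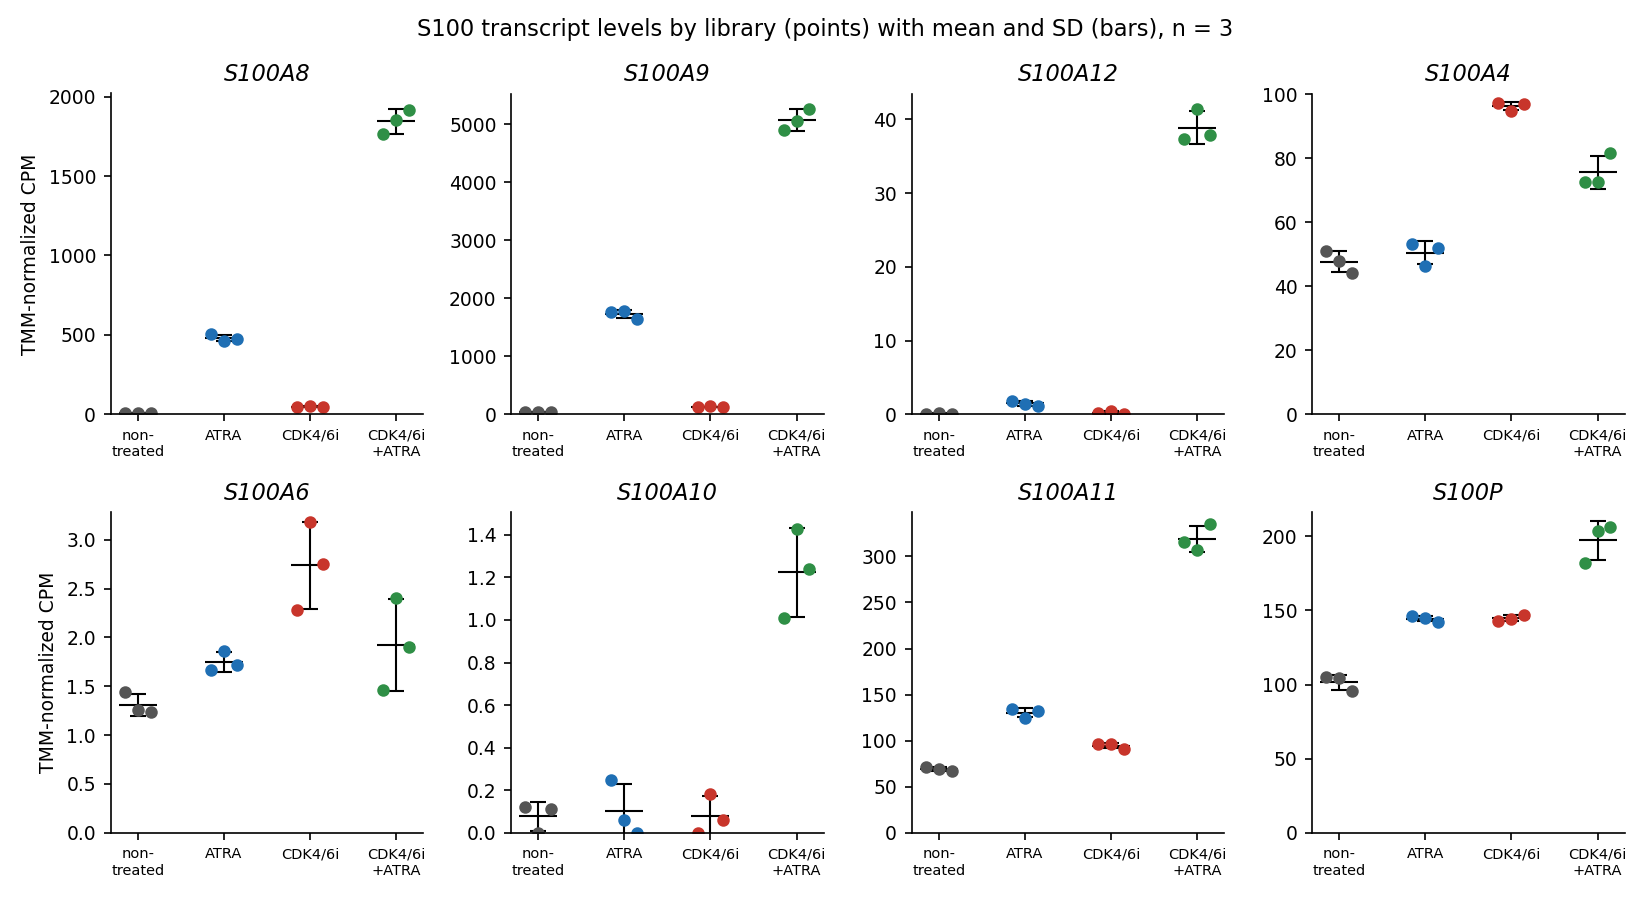
TMM-normalized CPM (linear axes from 0, a scale of its own in each panel) of the 8 S100 genes in the 3 libraries of each group, as points with the mean and SD. S100A8, S100A9, S100A12, S100A10, S100A11 and S100P were highest with CDK4/6i+ATRA, whereas S100A4 and S100A6 were highest with CDK4/6i alone.

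The genes of these 3 phagocyte members lie within a short stretch of chromosome 1 in the hg38 coordinates of the count table. S100A9 is on the plus strand at chr1:153357854-153361023, S100A12 on the minus strand at chr1:153373711-153375621 and S100A8 on the minus strand at chr1:153390032-153422583, a span that includes a distal first exon of other transcripts. The 250 bases before their annotated starts are shown because these 3 genes rose together, with those of S100A11 as a member with a smaller rise and a CpG-richer promoter. They are RefSeq sequences on GRCh38.p14, written in the direction of the gene. Capitals mark TATAAA and, in S100A12 and S100A11, the match to TTGCNNAA, the C/EBP core, on the opposite strand.

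S100A8 (chr1:153391074-153391323, minus strand): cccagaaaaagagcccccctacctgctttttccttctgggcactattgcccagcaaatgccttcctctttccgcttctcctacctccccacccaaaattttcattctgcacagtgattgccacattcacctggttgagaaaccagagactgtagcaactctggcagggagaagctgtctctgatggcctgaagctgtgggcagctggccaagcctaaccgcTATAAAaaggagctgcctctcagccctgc

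S100A9 (chr1:153357604-153357853, plus strand): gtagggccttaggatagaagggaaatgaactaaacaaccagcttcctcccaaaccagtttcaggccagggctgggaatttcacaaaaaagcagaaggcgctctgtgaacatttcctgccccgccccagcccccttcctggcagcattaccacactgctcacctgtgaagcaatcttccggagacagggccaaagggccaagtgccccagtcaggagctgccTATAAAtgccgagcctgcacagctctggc

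S100A12 (chr1:153375622-153375871, minus strand): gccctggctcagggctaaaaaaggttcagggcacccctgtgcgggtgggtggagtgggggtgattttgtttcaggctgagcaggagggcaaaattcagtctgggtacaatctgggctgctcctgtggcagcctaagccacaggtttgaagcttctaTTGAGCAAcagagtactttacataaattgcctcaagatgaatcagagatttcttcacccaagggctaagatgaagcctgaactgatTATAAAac

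S100A11 (chr1:152037005-152037254, minus strand): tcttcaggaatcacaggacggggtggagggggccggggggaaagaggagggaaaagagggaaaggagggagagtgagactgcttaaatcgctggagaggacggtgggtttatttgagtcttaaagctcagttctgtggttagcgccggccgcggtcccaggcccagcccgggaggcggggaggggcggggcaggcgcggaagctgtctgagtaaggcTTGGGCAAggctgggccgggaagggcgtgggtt

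RefSeq promoter sequences matched all 8 members by symbol, and S100A8 had 3 annotated starts, of which the start of the canonical GENCODE transcript was taken. TATAAA was present in 5 of the 8 windows. Its first base lay 29 bases before the start in S100A8 and S100A9, 8 in S100A12, 31 in S100A4 and 28 in S100P, and was absent from the windows of S100A6, S100A10 and S100A11. Of 35116 windows of this length over all genes, 10.7% held TATAAA on either strand. GAGGAA, the core of PU.1 sites, was found on the opposite strand in S100A8 and S100A9, at 189 and 208 bases before the start (23.6% of windows). TTGCNNAA was found in S100A12 and S100A11 (9.05% of windows), and AGGTCA, the half-site of nuclear receptors, was found in S100A4 (12.1% of windows). The windows of S100A8, S100A9, S100A12, S100A4 and S100P held 2, 4, 1, 7 and 4 CpG dinucleotides, and those of S100A6, S100A10 and S100A11 held 24, 24 and 15, against a median of 11 over all windows. These matches describe letters only, and binding was not measured.

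S100A8 and S100A9 did not keep a fixed proportion. The TPM ratio of S100A9 to S100A8 averaged 7.17 ± 1.02 (SD, n = 3) without treatment, 4.57 ± 0.268 after ATRA, 3.34 ± 0.0610 with CDK4/6i and 3.48 ± 0.0340 with both drugs. The single libraries spanned 6.35 to 8.31, 4.41 to 4.88, 3.30 to 3.41 and 3.45 to 3.52, so no pair of groups overlapped. This ratio does not depend on library size or TMM. Each of the 6 pairs of groups gave p = 0.1 in a two-sided exact permutation test, the smallest p that 3 against 3 libraries allow. The highest ratio belonged to non-treated replicate 1, which held 754 counts of S100A9 against 583 and 642 in the other two.

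Together S100A8 and S100A9 made up 0.00480% of all counts in non-treated cells, 0.0184% with CDK4/6i, 0.235% with ATRA and 0.596% with both drugs. The TPM of all 8 members summed to 1317 ± 62.9, 2350 ± 66.1, 11621 ± 296.0 and 24444 ± 485.7 in that order (SD, n = 3). S100A8 and S100A9 held 15.5%, 30.7%, 85.2% and 90.4% of this sum. S100P, the leading member in non-treated cells, held 42.7%, 32.6%, 7.12% and 3.32%.

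**Figure D2:**
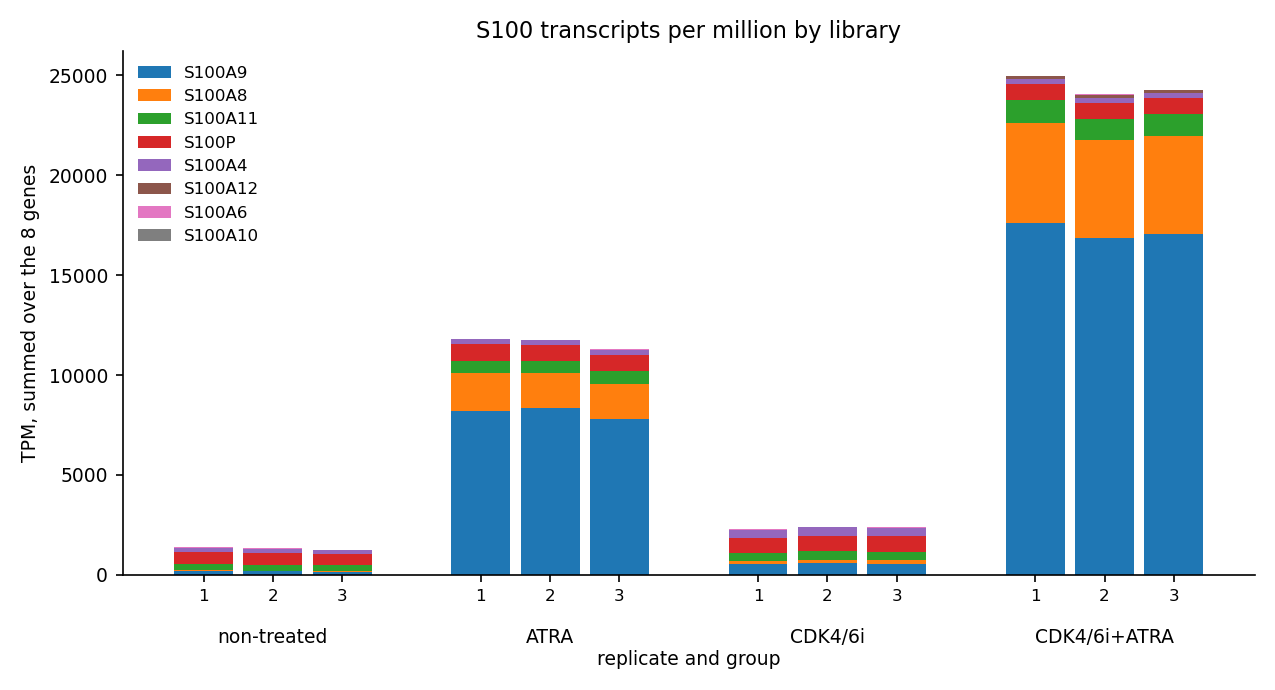
TPM of the 8 S100 genes stacked by library, with replicates 1 to 3 of each group side by side and the axis starting at 0. The sum was 1252 to 1377 in non-treated cells and 24056 to 24989 with CDK4/6i+ATRA, of which S100A9 and S100A8 made up 90.4%.

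S100A11, which binds annexin A1 and is expressed in many cell types, was raised by each drug and most by both. Its level was 71.9, 69.0 and 66.8 CPM in non-treated cells, 134.0, 125.0 and 132.1 with ATRA, 96.1, 96.1 and 91.2 with CDK4/6i, and 315.9, 306.6 and 334.8 with both drugs. No group overlapped another. The log2 fold changes were 0.91 with ATRA (SE 0.045, adjusted p = 7.60e-24), 0.45 with CDK4/6i (SE 0.046, adjusted p = 5.39e-12) and 2.21 with both (SE 0.043, adjusted p = 3.98e-41). Its 10 pseudogenes in the table held 55 counts in all, against 26117 for S100A11, so few reads were assigned to these copies.

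S100P, a member that binds the membrane linker ezrin and the only one of the 8 on chromosome 4 (chr4:6693878-6697170, plus strand), had 104.9, 104.2 and 95.5 CPM in non-treated cells. It had 146.1, 145.1 and 142.5 CPM with ATRA, 142.8, 144.5 and 146.7 with CDK4/6i, and 181.9, 203.6 and 206.3 with both drugs. The libraries of the 2 single drugs overlapped each other and lay between those of the non-treated and the CDK4/6i+ATRA-treated cells. Both single drugs gave a log2 fold change of 0.51 (SE 0.044 each, adjusted p = 1.11e-14 with ATRA and 2.01e-14 with CDK4/6i), and both together gave 0.96 (SE 0.044, adjusted p = 2.48e-25). CDK4/6i+ATRA exceeded ATRA by 0.45 on the log2 scale (SE 0.043, adjusted p = 2.78e-13), and by 0.14 with library size alone. The excess over CDK4/6i was likewise 0.45 and 0.17. In TPM, which carries no TMM factor, S100P was at 827.6 ± 5.53 with ATRA and 812.0 ± 15.4 with both drugs (SD, n = 3), so the libraries overlapped and the mean was not higher with both drugs on that scale.

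S100A4 and S100A6, which lie on either side of S100A5 at chr1:153543621-153545806 and chr1:153534599-153535991 (both minus strand), had their highest mean level with CDK4/6i alone. S100A4 binds non-muscle myosin and was present at 50.9, 48.0 and 44.3 CPM in non-treated cells and 53.2, 46.4 and 51.8 with ATRA. It was at 97.1, 94.8 and 96.9 CPM with CDK4/6i and 72.7, 72.6 and 81.6 with both drugs. The CDK4/6i libraries were the highest, those with both drugs came next, and the non-treated and ATRA libraries overlapped. Relative to non-treated cells, S100A4 differed on the log2 scale by 0.08 after ATRA (SE 0.059, adjusted p = 0.215), 1.01 with CDK4/6i (SE 0.055, adjusted p = 8.32e-22) and 0.67 with both (SE 0.059, adjusted p = 1.12e-14). Both drugs left S100A4 lower than CDK4/6i did, with a log2 difference of -0.35 (SE 0.054, adjusted p = 1.33e-07). With library size alone this difference was -0.63, and the rise with both drugs was 0.40 in place of 0.67 and still called. When only the ATRA and non-treated libraries were fitted, the ATRA difference was 0.13 and called (adjusted p = 0.0455).

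S100A6, or calcyclin, had low counts: 24, 20 and 22 in non-treated cells, 27, 32 and 31 with ATRA, 44, 52 and 47 with CDK4/6i and 16, 27 and 23 with both drugs. These are 1.31 ± 0.113, 1.75 ± 0.105, 2.74 ± 0.448 and 1.92 ± 0.471 CPM (SD, n = 3). The CDK4/6i level stood above the non-treated level in every library but overlapped with CDK4/6i+ATRA. The rise with CDK4/6i passed the test (log2 1.05, SE 0.26, adjusted p = 0.000613), and the differences with ATRA (0.41, SE 0.28, adjusted p = 0.195) and with both drugs (0.55, SE 0.30, adjusted p = 0.0844) did not. The latter was called when genes under 10 counts in any library were dropped (0.59, adjusted p = 0.0467) and without CDK4/6i+ATRA replicate 1 (0.71, adjusted p = 0.0468). ATRA was lower than CDK4/6i (-0.64, SE 0.25, adjusted p = 0.0211), a call lost without ATRA replicate 1, ATRA replicate 3 or CDK4/6i replicate 2 (-0.61, -0.62 and -0.52, adjusted p = 0.0594, 0.0535 and 0.101). CDK4/6i+ATRA against CDK4/6i was -0.50 (adjusted p = 0.0836), and was called without CDK4/6i+ATRA replicate 2 (-0.69, adjusted p = 0.0445) and with library size alone (-0.78, adjusted p = 0.00680). An exon of S100A6 shares 217 bases with LOC124904423 on the other strand, which held 21 counts against 365 for S100A6. The library kit keeps strand, but whether the counting used it is not given in the sources used here.

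S100A10, the light chain of the annexin A2 tetramer, was near the floor outside the combination. Its counts were 2, 0 and 2 in non-treated cells, 4, 1 and 0 with ATRA, 0, 3 and 1 with CDK4/6i and 11, 16 and 15 with both drugs. No library outside the combination held more than 4 counts, and the CDK4/6i+ATRA libraries (1.22 ± 0.209 CPM, SD, n = 3) did not overlap any other group. The pooled ratio of CDK4/6i+ATRA to non-treated cells was 15.4 (exact 95% interval 5.60 to 59.3), to ATRA 12.6 (5.01 to 40.9) and to CDK4/6i 16.2 (5.87 to 62.1). The fitted log2 difference from ATRA of 3.55 was 5.08 or 2.96 without ATRA replicate 1 or 3, and that from CDK4/6i of 3.88 was 5.11 or 3.28 without CDK4/6i replicate 2 or 1. Between the other groups no difference was detectable at this depth. S100A10 passed the filter on low counts only through the group in which it was high, and S100A12 only through the ATRA and CDK4/6i+ATRA groups, so tests of these groups for the 2 genes, and counts of called members, are given as a description and support nothing.

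Against non-treated cells, 5 of the 8 members were called with ATRA, all higher, where 67.6% of all tested genes were called, 32.1% higher and 35.5% lower. With CDK4/6i 6 members were called, all higher (56.2% of all tested genes called, 28.3% higher and 27.9% lower). With both drugs 7 were called, all higher (81.7% called, 41.0% higher and 40.7% lower), and the exception was S100A6. The median log2 fold change of the members was 0.71, 1.03 and 3.01 in these 3 comparisons, beside -0.03, 0.02 and 0.02 over all tested genes. These medians include S100A12 and S100A10, which passed the filter on low counts only through groups in which they were high. The other 6 members had a median of 1.58 with both drugs, with 5 called higher. The groups did not overlap for 6, 6 and 8 members, where 70.3%, 60.7% and 81.8% of all tested genes did not overlap. For S100A6 with both drugs the gap was narrow, with non-treated libraries up to 1.44 CPM and CDK4/6i+ATRA libraries from 1.47 CPM. In TPM these S100A6 libraries overlapped, with 8.30 in non-treated replicate 1 and 6.73 in CDK4/6i+ATRA replicate 1. The 3 comparisons share the non-treated libraries.

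Between treatments, CDK4/6i+ATRA was higher than ATRA for 7 members (69.8% of all genes called, 36.9% higher and 32.8% lower), with S100A6 as the exception (log2 0.14, SE 0.28, adjusted p = 0.675) and S100P higher in CPM but not in TPM. The S100A4 libraries of these groups overlapped in TPM, at 221.8 to 254.5 with ATRA and 247.0 to 269.5 with both drugs. CDK4/6i+ATRA was higher than CDK4/6i for 6 members and lower for S100A4 (78.6% of all genes called, 39.1% higher and 39.5% lower). ATRA against CDK4/6i divided the members by direction (70.8% of all genes called, 35.2% higher and 35.6% lower). S100A8, S100A9, S100A12 and S100A11 were higher with ATRA, by log2 differences of 3.31 (SE 0.048), 3.76 (SE 0.056), 2.76 (SE 0.43) and 0.46 (SE 0.043). The value of S100A12 was 3.63 without CDK4/6i replicate 2. S100A4 (-0.93, SE 0.054, adjusted p = 5.36e-21) and S100A6 were higher with CDK4/6i. S100P differed by 0.00 (SE 0.042, adjusted p = 0.981), and S100A10 was within counting error. The libraries of the groups did not overlap for 7, 7 and 6 members in these 3 comparisons, beside 71.9%, 78.9% and 73.2% of all tested genes.

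**Figure D3:**
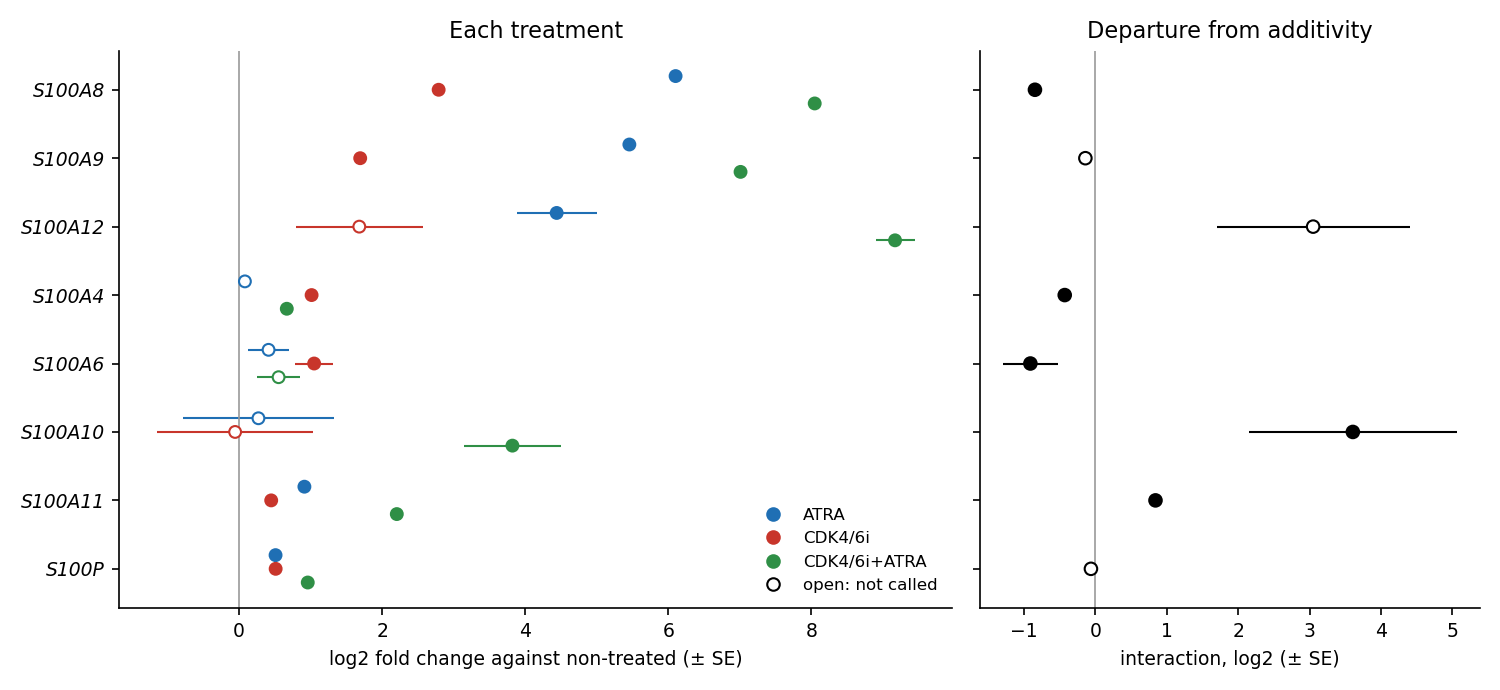
Log2 fold change of each S100 gene against non-treated cells with ATRA, CDK4/6i or both (left), and the interaction of the drugs (right), from edgeR with bars of 1 SE, filled where the adjusted p was below 0.05. S100A8, S100A9 and S100A12 lie at 7.01 to 9.17 with both drugs, and the interactions run from -0.91 for S100A6 to 3.61 for S100A10.

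How the combination related to the single effects was tested by the interaction, the log2 difference between the effect of ATRA in the presence and in the absence of CDK4/6i. A value of 0 means that the fold changes multiply. Over all tested genes 51.4% were called, 24.5% above and 27.0% below 0, and the median was -0.02 (-0.34 with library size alone, which gave 1375 genes above and 6061 below 0 in place of 3258 and 3594). Among the members 5 were called, 2 above and 3 below 0, a share near that of all genes. S100A11 was above 0 at 0.84 (SE 0.061, adjusted p = 1.07e-16, 0.52 with library size alone), with 319.1 CPM observed, beside 178.0 if the folds multiplied and 155.7 if the differences added. S100A8 was below 0 at -0.85 (SE 0.093, adjusted p = 5.88e-11). Its level with both drugs of 1845 CPM lay below the 3326 CPM of multiplied folds and above the 520.8 CPM of added differences, so the sign of its departure depends on the scale. S100A4 was below 0 at -0.43 (SE 0.080, adjusted p = 9.95e-06, -0.75 with library size alone), and its 75.6 CPM lay under both the multiplied (101.8) and the added (99.0) value.

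For S100A9 the interaction was -0.14 (SE 0.079, adjusted p = 0.140), with 5070 CPM observed beside 5587 if the folds multiplied and 1815 if the differences added. Without non-treated replicate 1 it was -0.26 and called (adjusted p = 0.00543), and it was also called with no filter on low counts (-0.22, adjusted p = 0.00782) and with library size alone (-0.46, adjusted p = 4.43e-07). For S100P it was -0.06 (SE 0.061, adjusted p = 0.424), and with library size alone -0.38 (adjusted p = 4.27e-07), close to the median of all genes on that scale. S100A12 had an interaction of 3.05 (SE 1.35, adjusted p = 0.0550) that was called by DESeq2 (2.91, adjusted p = 0.00681) and without non-treated replicate 3, ATRA replicate 1 or CDK4/6i replicate 2 (3.61, 3.20 and 3.92, adjusted p = 0.0233, 0.0468 and 0.0194). Without non-treated replicate 2 it was 2.18 and not called (adjusted p = 0.461).

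The interactions of the low-count members S100A6 (-0.91, SE 0.39, adjusted p = 0.0459) and S100A10 (3.61, SE 1.46, adjusted p = 0.0349) rested on few counts. For S100A6 the call was lost with DESeq2 (-0.94, adjusted p = 0.0627) and without non-treated replicate 2 or 3, any ATRA replicate, CDK4/6i replicate 2 or 3, or CDK4/6i+ATRA replicate 1 or 3 (-0.76 to -0.95, adjusted p from 0.0564 to 0.128). For S100A10 it was lost with library size alone (3.29, adjusted p = 0.0561), with no filter (3.51, adjusted p = 0.0640), and without non-treated replicate 1 or 3, ATRA replicate 2 or 3, CDK4/6i replicate 1 or 3, or CDK4/6i+ATRA replicate 2 (3.01 to 3.48, adjusted p from 0.0512 to 0.159), and the value was 5.13 without ATRA replicate 1 and 4.84 without CDK4/6i replicate 2.

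**Figure D4:**
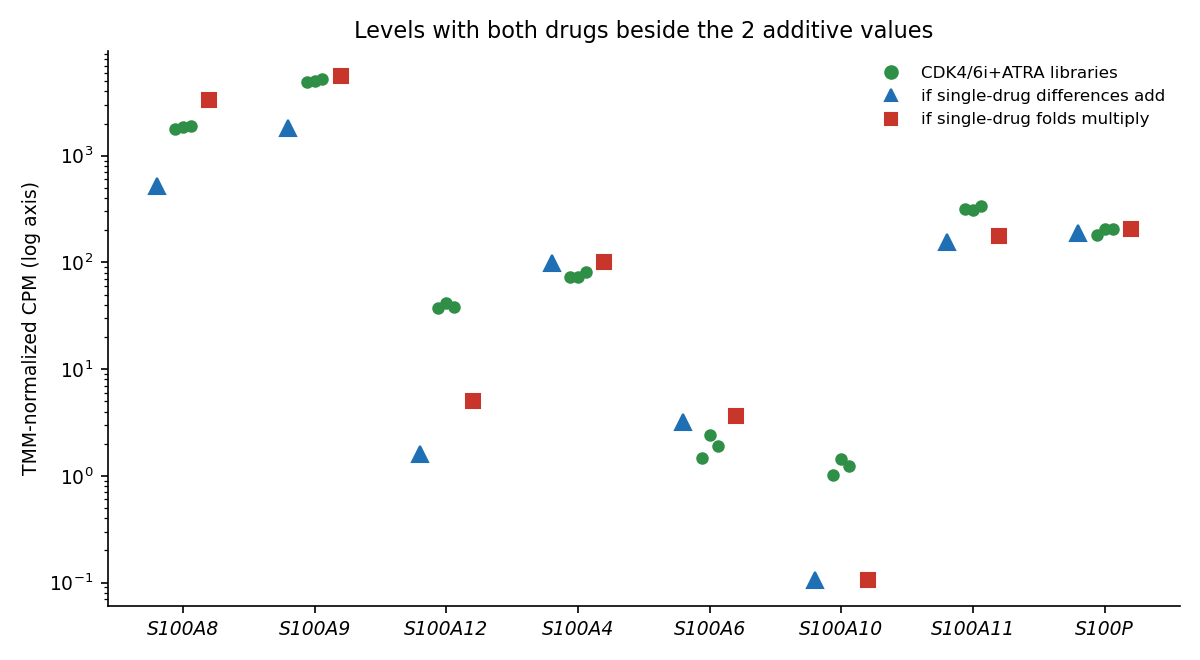
CPM of each S100 gene in the 3 CDK4/6i+ATRA libraries (points, log axis) beside the level that would result if the differences of the single drugs added (triangles) or if their folds multiplied (squares). S100A11 lies above both values, S100A4 and S100A6 below both, and S100A8 and S100A9 between them.

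Most of the other S100 genes in the table had few or no counts. Of 13 further S100 genes, S100A7, S100A7A, S100A7L2, S100A14 and S100A16 had no count in any library, which allows at most 0.156 to 0.275 CPM per library. S100A1, S100A2, S100A3, S100A5, S100G and S100Z had 42, 26, 6, 17, 1 and 36 counts over all 12 libraries and were not tested. S100A13, which takes part in the release of proteins without a signal peptide, followed CDK4/6i, with 1.47 ± 0.499 CPM (SD, n = 3) without treatment, 1.87 ± 0.152 after ATRA, 3.07 ± 0.385 with CDK4/6i and 3.12 ± 0.553 with both drugs. It was called with CDK4/6i (log2 1.06, SE 0.25, adjusted p = 0.000365) and with both (1.07, SE 0.27, adjusted p = 0.000370), not with ATRA (0.34, adjusted p = 0.276). S100B, best known from astrocytes, followed ATRA, with 0.724 ± 0.295, 3.16 ± 0.392, 0.897 ± 0.528 and 2.55 ± 0.522 CPM in the same order. Its log2 fold change was 2.13 with ATRA (SE 0.33, adjusted p = 1.27e-07) and 1.83 with both (SE 0.36, adjusted p = 8.69e-06), and 0.31 with CDK4/6i (adjusted p = 0.530). Of 7 genes of the fused S100 type, in which an S100 domain is joined to a long repeat, 6 had no count, and TCHH was the one tested. Its counts were 14, 6 and 16 in non-treated cells and 13, 25 and 27 with ATRA, and it lay under the floor with 1, 1 and 1 counts with CDK4/6i and 1, 2 and 0 with both drugs. TCHH was called lower than in non-treated cells with CDK4/6i (adjusted p = 3.75e-05) and with both (adjusted p = 0.000433).

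On chromosome 1, 23 genes had their lowest coordinate within the 274.2 kb from S100A9 to S100A1, of which 18 carried S100 names. Of the 5 others 3 had no count and 0 were tested. In a wider region reaching 1500 kb to either side of that interval, 38 genes were tested. Of the 31 that are not members, 15 were higher and 13 lower with both drugs against non-treated cells, beside 41.0% and 40.7% of all tested genes, with a median log2 fold change of 0.13 and a maximum of 2.15 (EFNA4, chosen after its values were seen). S100A9, S100A12 and S100A8 lay above this maximum, as did S100A10 and S100A11, which lie apart from the cluster at chr1:151982915-151993859 and chr1:152032506-152037004 (both minus strand). S100A12 and S100A10 passed the filter on low counts only through groups in which they were high, so their place above the neighbours supports nothing. S100A4 and S100A6 lay within the range of the neighbours.

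**Figure D5:**
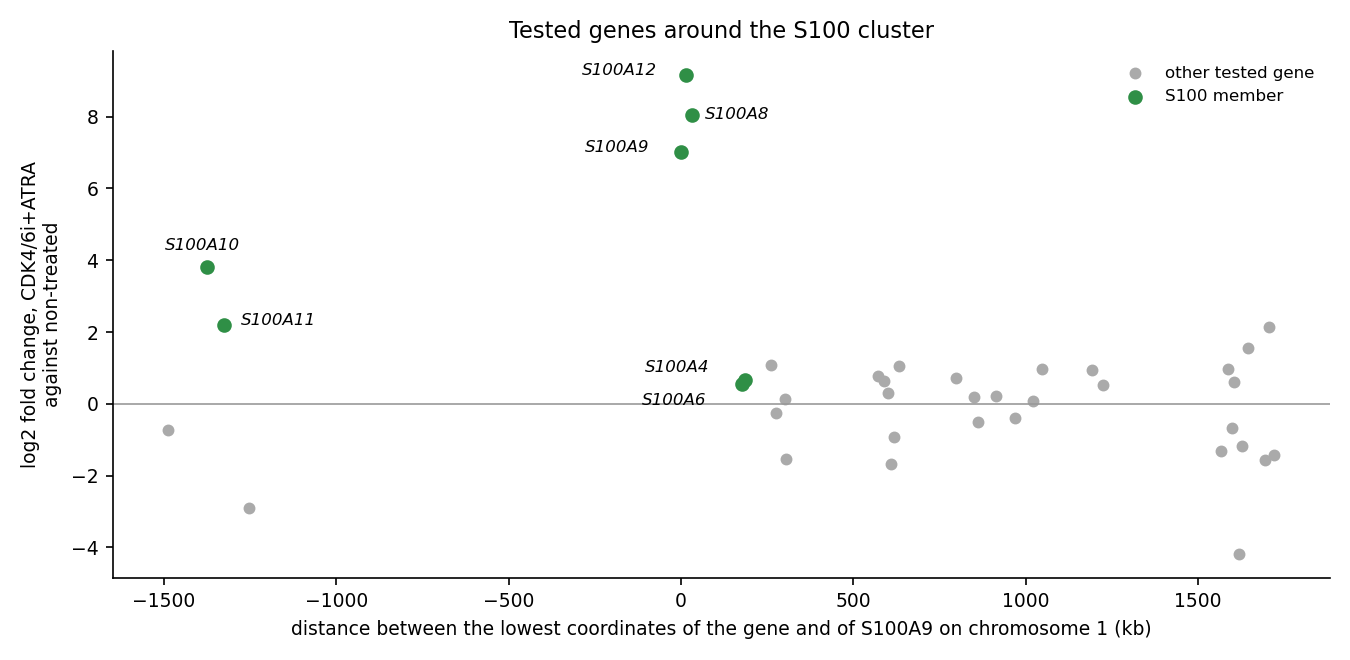
Log2 fold change (CDK4/6i+ATRA over non-treated) of the 38 tested genes around the S100 cluster, by the distance between their lowest coordinate and that of S100A9 (kb), which is the start only for genes on the plus strand. The 3 phagocyte members within 32.2 kb lie at 7.01 to 9.17, and the 31 genes that are not members lie between -4.18 and 2.15. S100A12 and S100A10 passed the filter on low counts only through groups in which they were high.

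The profile most like that of S100A8 over the 12 libraries, by Euclidean distance between centred log2 CPM profiles among 9294 genes, was that of AIM2, a sensor of cytosolic DNA (distance 0.770), followed by CXCL16 (1.32) and CCL2 (1.39). For S100A9 the nearest were BCL2A1, an antiapoptotic BCL2 relative (0.713), the coagulation factor gene F5 (0.772) and CD300A (0.953), all nearer than S100A8 itself (1.53). The nearest to S100A12 were CCL24, IL1B and SLC26A11, at 2.73, 2.79 and 3.08. Counts near the floor enter the distances of S100A12 and S100A10, so these are not comparable with those of the other members. Non-treated means of AIM2, CXCL16, CCL24 and SLC26A11 were likewise near or below the floor, at 0.178, 0.0200, 0 and 0 CPM. S100A11 was nearest to SGPL1 (0.192), CPPED1 (0.246) and the autophagy gene MAP1LC3B (0.284), and S100P to LEPROTL1 (0.185), LAMTOR1 (0.194) and GGPS1 (0.254). S100A4 was nearest to DGAT2 (0.323), GGT1 (0.339) and HOMEZ (0.351), S100A6 to BANK1 (0.646), TMEM106B (0.677) and MLYCD (0.713), and S100A10 to MFSD6, ADM and F3 (2.33, 2.38 and 2.39). Among the members, S100A4 and S100A6 were the closest pair (0.904). By Pearson correlation, 683 genes for S100A8 and 779 for S100A9 exceeded 0.95, beside 602 for S100A12, 937 for S100A11, 269 for S100P, 30 for S100A4 and 0 for S100A6 and S100A10.

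The genes for S100 receptors and partners were read beside the members. Of 10 receptor genes 8 were tested, and 5 were higher and 2 lower with both drugs against non-treated cells, where 81.7% of all tested genes were called, with a median log2 fold change of 0.82 beside 0.02 over all genes. CD36, LRP1 and LY96 had under 10 counts in every non-treated library and passed the filter on low counts only through treated groups. Of the other 5 receptor genes, 2 were higher and 2 lower, with a median of 0.09. CD36, a scavenger receptor that binds the S100A8-S100A9 complex, was at 0 in non-treated and CDK4/6i-treated cells and at 5.19 ± 0.632 CPM with ATRA and 26.1 ± 1.84 with both (SD, n = 3). LRP1, an endocytic receptor, rose from 0.0576 to 4.27 CPM with both drugs, and LY96, the partner of TLR4, from 0.157 to 4.03 CPM. LRP1 was at or below the floor in every non-treated library, whereas LY96 was not in all of them. NPTN, a receptor of S100A8, was higher with ATRA (log2 0.40) and with both drugs (0.90) and not called with CDK4/6i (0.05, adjusted p = 0.489).

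Of 18 intracellular partners 14 were tested, with 8 higher and 6 lower with both drugs, beside 41.0% higher and 40.7% lower over all tested genes, and a median of 0.63 (0.11 without TRPM4, which passed the filter only through treated groups). Cathepsin D (CTSD) rose from 313.1 to 4463 CPM with both drugs (log2 3.83), and the cation channel gene TRPM4 from 0.0576 to 2.97 CPM. AHNAK, a large scaffold that the S100A10-annexin A2 complex binds, was lower with ATRA (-0.60, adjusted p = 0.00867) and higher with CDK4/6i (1.92) and with both drugs (3.55, 42.0 against 3.53 CPM).

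Of 14 myeloid transcriptional regulators 13 were tested, with 10 higher and 3 lower with both drugs, where 41.0% of all tested genes were higher and 40.7% lower. Without IRF7, 9 of 12 were higher and 3 lower, with a median log2 fold change of 1.02. CEBPB was at 37.3 ± 1.81 CPM (SD, n = 3) without treatment, 263.9 CPM after ATRA, 38.5 ± 2.52 with CDK4/6i and 328.9 ± 11.3 with both, so it was called with ATRA (log2 2.82) and not with CDK4/6i (0.04, adjusted p = 0.536). ZEB2 was highest with both drugs (373.3 against 57.9 CPM, log2 2.69), IRF7, which likewise passed only through treated groups, rose from 0.140 to 1.69 CPM and KLF5 fell from 17.2 to 3.32 CPM (log2 -2.36).

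Of 15 neutrophil cytosolic and granule companions 11 were tested, and 11 were higher with both drugs (41.0% of all tested genes), with a median log2 fold change of 5.28. MMP8 passed the filter only through treated groups, and without it 10 of 10 were higher with a median of 4.90. The 4 companions not tested did not pass the filter, so these counts do not cover the whole list and support nothing. With ATRA 10 were higher and 1 lower (32.1% and 35.5% of all tested genes), and with CDK4/6i 10 were higher (28.3%). PADI4, a histone deiminase of neutrophils, rose from 2.94 ± 0.495 CPM (SD, n = 3) to 347.6 ± 8.36 with ATRA, 22.7 ± 1.65 with CDK4/6i and 499.7 ± 22.4 with both, with an interaction of -2.42. The integrin gene ITGAX rose from 0.853 to 138.5 CPM and the formyl peptide receptor gene FPR1 from 0.837 to 65.4 CPM with both drugs. MMP8, the neutrophil collagenase, was at 0 without ATRA, at 1.97 ± 0.499 CPM with ATRA and at 9.35 ± 1.13 with both. These lists were compiled by hand and are described by their counts, with no test of a list as a whole.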

How the data were processed

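RNA-Seq of HL60 cells comprised 12 libraries in 4 groups of 3, and groups were taken from the sample labels. According to the methods and the submitters' processing notes, the authors trimmed reads with Trimmomatic 0.33, aligned them to hg38 with STAR 2.7.11a under the NCBI RefSeq annotation, name RSEM as the source of the counts and tested them with DESeq2. The authors deposited raw gene counts, whole numbers without normalization, with the length, exon positions and strand of each gene, in the layout that featureCounts writes. Whether the counting used strand is not given in the sources used here. TPM was computed from these counts and lengths.

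Genes were filtered with filterByExpr (13318 of 59251 kept), normalized by TMM and tested with the quasi-likelihood F test of edgeR 4.0.16 (R 4.3.3) in a model of the 4 groups without a replicate block. It gave 6 pairwise comparisons and the interaction, with 8 residual degrees of freedom, a common biological coefficient of variation of 3.70%, p-values adjusted by Benjamini-Hochberg over the 13318 genes, and genes with an adjusted p below 0.05 are named as called. All adjusted p-values are from this test unless DESeq2 1.42.0 is named. Ratios of pooled counts have exact 95% binomial intervals, and the S100A9 to S100A8 ratio was compared with an exact permutation test in scipy 1.17.1.

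The members and the gene lists were chosen with earlier results of these data known. The genes named are the members, the other S100 genes, from each list up to 4 called genes that differed most between CDK4/6i+ATRA-treated and non-treated cells, and per member the 3 most similar profiles among genes of at least 5 CPM on average (log2 CPM with a prior count of 1). A gene picked by this rule is not reported here. In simulated counts 200 genes were changed in the CDK4/6i+ATRA libraries. All other genes had equal means in the groups, and every gene had the same dispersion. Far fewer genes changed than in the data, so the simulation did not test the shift between TMM and library size. Of the 200 changed genes the CDK4/6i+ATRA to non-treated comparison found 179 and wrongly called 10 others (12883 genes). The interaction found 173 and wrongly called 2 (12856 genes). Alternatives replaced TMM by library size or by the size factors of DESeq2, the filter by none or by a minimum of 10 counts per library, and edgeR by DESeq2. Others were a replicate block, fits of the compared groups alone, the linear scale of CPM for additivity, Pearson correlation for likeness, and each library left out. The ChIP-Seq data of the study were not used here.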

Additional observations from a re-analysis of the deposited data

Results flagged for a closer look

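The effect of ATRA in CDK4/6i-treated cells was compared with its effect without CDK4/6i by the interaction term of the edgeR model. It was called for 5 of the 8 S100 genes, a share near the 51.4% of all tested genes. The difference between the ATRA effects, on the log2 scale, was -0.85 for S100A8, where ATRA raised the level by 6.10 alone and by 5.26 in the presence of CDK4/6i. For S100A4 it was -0.43, with ATRA effects of 0.08 and -0.35. It was 0.84 for S100A11, with ATRA effects of 0.91 and 1.76. For S100A6 it was -0.91 and for S100A10 it was 3.61, both from low counts, S100A10 having passed the filter only through CDK4/6i+ATRA, and both were lost under several alternatives (S100A6 without CDK4/6i+ATRA replicate 1, -0.76, and S100A10 without non-treated replicate 1, 3.22).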

How the results depend on the processing

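Of 1038 log2 values of the 8 S100 genes under an alternative, 1001 kept their side of the threshold, 23 were no longer called and 14 became called. The sign changed in 17, all of differences not called on either side (8 of S100A10, 2 of S100A6 and 7 of S100P), so 984 kept both. For S100A8, S100A9, S100A4, S100A11 and S100P, 655 of 660 kept their side of the threshold. On the linear scale of CPM, the departure from additivity of S100A8 was 1324 (SE 46.9) in place of -0.85 on the log2 scale, a change of sign that follows from adding differences instead of multiplying folds. The number of S100 genes called for the interaction was 5, and leaving out 1 library gave 3 to 5, with 3 without ATRA replicate 2, ATRA replicate 3 or CDK4/6i replicate 3. At least 10 counts in every library removed S100A12 and S100A10, which gave no value there.

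With library size alone, CDK4/6i+ATRA against ATRA gave 2956 genes higher and 6412 lower in place of 4920 and 4371 with TMM, and against CDK4/6i 3805 and 6554 in place of 5212 and 5261. With no filter the interaction gave 2440 and 3998. The replicate block could be fitted, but same-numbered libraries did not deviate together (correlations of -0.06 to 0.03 over 18 pairs, 0 above 0.1), so the numbers were taken as names. With the replicate block the interaction gave 4 called S100 genes, without S100A6 (-0.91, adjusted p = 0.0538), and 6775 called genes in place of 6852, and no other call of an S100 gene changed. Of the 3 genes most like each member, Pearson correlation shared 1 for S100A9, S100A4, S100A6 and S100A11 and 0 for the others. Total counts limit what can be said of S100A12 and S100A10 outside the groups in which they were high, and of S100A6.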
